A study of Mus musculus with 6 samples.

Results

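The genes described here are 9 that act in blood clotting and clot removal at the vessel wall: F3, Tfpi, Thbd, Procr, F8, Vwf, Plat, Plau and Plaur. They were chosen by symbol as rows of the deposited count table, and all 9 of the 9 symbols were found among its 22905 genes. All 9 also passed the filter on low counts, which left 14439 genes. The table holds RNA sequencing counts of primary hepatic stellate cells, liver pericytes that store vitamin A, from mice of the genotype BucheKI/KI-Hep that received CCl4 (carbon tetrachloride), which injures hepatocytes and scars the liver. The labels assign 3 libraries to PBS and 3 to DOX, and give all 6 the same knock-in genotype and CCl4 treatment. How and when PBS and DOX were given is not stated there. The series describes overexpression of butyrylcholinesterase in hepatocytes before the stellate cells were isolated, and the comparison of DOX with PBS addresses what changed in the isolated cells. The sources used here do not give the promoter of the knock-in, the length of the CCl4 treatment or the age of the mice. Animals given DOX without the introduced gene were not analysed here, so DOX and the introduced gene cannot be told apart.

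Clotting at a vessel wall begins when tissue factor, the product of F3, meets factor VII of the blood, and tissue factor pathway inhibitor, from Tfpi, blocks that complex. Endothelial cells display thrombomodulin (Thbd), which turns thrombin into an activator of the anticoagulant protein C. Beside it these cells carry the endothelial protein C receptor (Procr), which binds protein C. They also make factor VIII (F8), a cofactor of thrombin generation for which the liver sinusoidal endothelium is the main source, and von Willebrand factor (Vwf), which carries factor VIII in plasma and tethers platelets. Clots are dissolved by plasmin, which tissue-type plasminogen activator (Plat) and urokinase (Plau) cut from plasminogen. Urokinase works at cell surfaces bound to its receptor (Plaur).

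Library totals were between 36220282 and 37707364 counts, and the labels do not say that replicates came from separate animals, so the p-values rest on a spread between samples that may be technical. Bche, the gene raised in the model, stood at 0.415 ± 0.240 CPM (counts relative to the library total after TMM scaling) in the PBS libraries against 50.5 ± 43.3 CPM in those given DOX (SD, n = 3 each). The summed level of 14 general endothelial genes was between 6353 and 7054 CPM in PBS and between 5127 and 6070.1 CPM in DOX, with no overlap. Of those genes Cdh5 was the most abundant per length, ahead of Cldn5, at 677 FPKM (the authors' counts per kilobase relative to the library total) in PBS and 557 FPKM in DOX. For 12 stellate cell markers (led by Dcn and Ecm1) the sums were 645 to 1456 CPM in PBS and 799.6 to 1197 CPM in DOX. Lrat, a retinol-esterifying enzyme among the 12 that was named after its values were seen, had 1.99 CPM in PBS. Nothing is read about stellate cell content from that gene alone. For 14 macrophage genes (led by Lyz2 and Marco) the sums were 3917 to 5882 CPM in PBS and 7016 to 12751 CPM in DOX. Transcripts of endothelial cells and macrophages were thus abundant in libraries labelled as stellate cells, and fewer cells of a type and less RNA per cell cannot be told apart in such bulk samples. Mpeg1, a macrophage gene, had 1441, 1376 and 989 CPM in PBS and 2662, 1655 and 1999 CPM in DOX. The venous, arterial and lymphatic list (led by Ackr1 and Selp) summed to 1297 to 1948 CPM in PBS and 1639 to 2279 CPM in DOX, and the fibroblast and mesothelial list (led by Msln and Cd34) to 116 to 271 and 187 to 285 CPM. Lymphocyte genes (led by Gzma and Nkg7) summed to 2.32 to 6.60 CPM in PBS and 12.1 to 23.2 CPM in DOX. For 10 platelet and megakaryocyte genes the sums were 72.7 to 115 CPM in PBS and 80.8 to 122 CPM in DOX. Most of that was Clec1b, which sinusoidal endothelium also expresses, followed by Pf4, while 7 of the 10, among them Ppbp and Gp9, were too low to pass the filter. The hepatocyte list (led by Alb and Trf) summed to 278 to 523 CPM in PBS, and in DOX to 969 CPM in replicate 1, 406 in replicate 2 and 3418 in replicate 3.

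None of the 9 genes passed an adjusted p of 0.05 in either direction in edgeR's quasi-likelihood test, where 6.41% of all genes tested passed (4.38% as higher in DOX and 2.04% as lower). An unadjusted p under 0.05 was reached by 2 of the 9, Procr and Plaur, against 28.7% of all genes. DESeq2 called both of these higher, where it called 11.6% of all genes higher, and limma-voom called 0 of the 9 and 5.97% of all genes. Groups did not overlap for the same 2 genes, with DOX above PBS, where 34.6% of all genes had groups that did not overlap (16.9% with DOX above PBS). Beside these shares nothing is read from a count of 2 among 9 genes. The median log2 fold change of the 9 was -0.02, beside -0.01 over all genes tested. A negative value was found for 6 of the 9, beside 51.4% of all genes tested. The text below therefore gives levels and intervals, gene by gene.

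**Figure D1:**
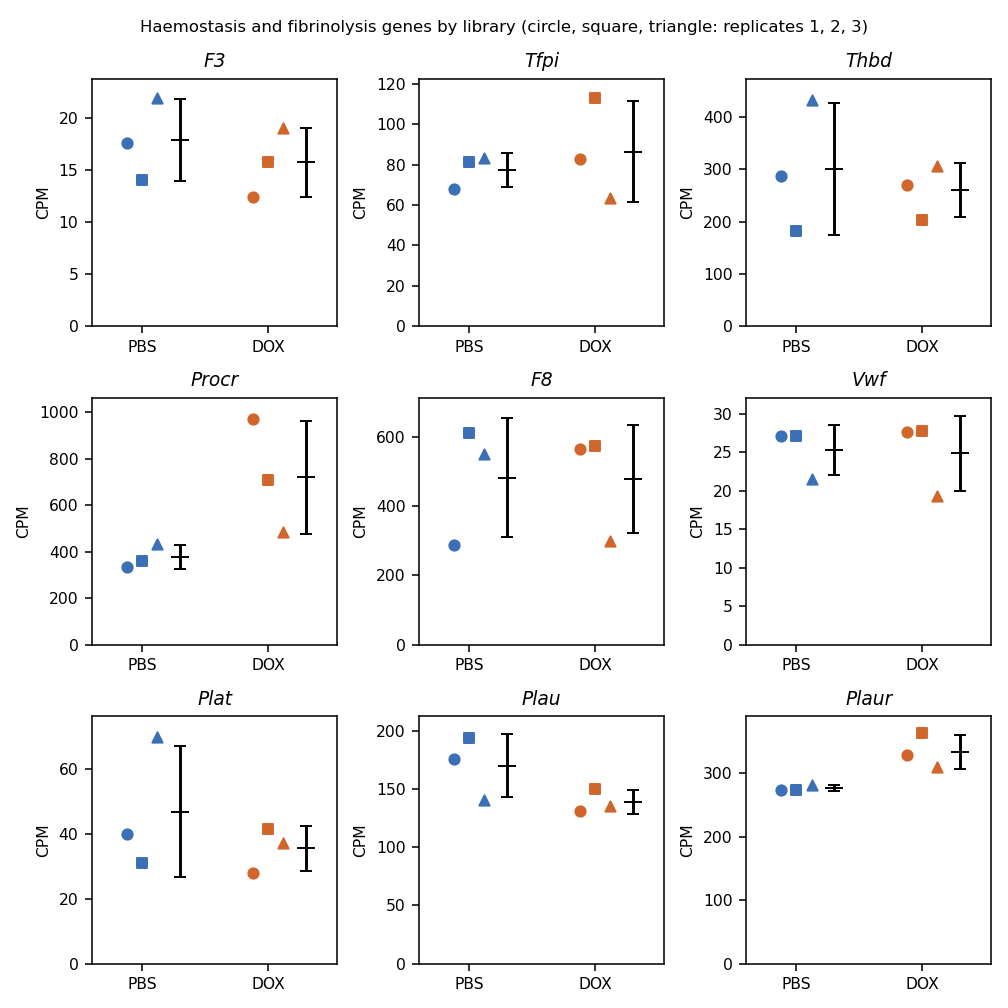
Normalised counts (CPM, linear axes from 0) of the 9 genes in each library, with circles, squares and triangles for replicates 1, 2 and 3 and black bars for the mean and SD of 3 libraries. Only for Procr and Plaur do all 3 DOX libraries lie above all 3 PBS libraries.

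Per length, the transcripts of Procr and Plaur were the most abundant of the set and Vwf the least. In PBS the levels were 186 ± 5.66 FPKM for Plaur, 145 ± 21.7 for Procr, 84.7 ± 36.0 for Thbd, 70.7 ± 11.2 for Plau and 40.9 ± 15.1 for F8 (SD, n = 3). Below these stood Plat at 18.5 ± 8.17 FPKM, Tfpi at 18.2 ± 2.29, F3 at 9.94 ± 2.24 and Vwf at 2.95 ± 0.357. The ranges of neighbours in this order overlapped for Thbd and Plau, for F8 and Plat and for Plat and Tfpi, and the other neighbours stood apart. In DOX, Procr led at 251 ± 74.8 FPKM, followed by Plaur at 205 ± 13.01, and their ranges overlapped. The order below them was Thbd (67.2 FPKM), Plau (53.0), F8 (36.6), Tfpi (18.5), Plat (12.8), F3 (8.08) and Vwf (2.65). Here the ranges overlapped for Thbd and Plau, Tfpi and Plat, and Plat and F3. The gap between the highest and the lowest mean was 62.9-fold in PBS and 94.6-fold in DOX. Among the 14439 genes tested, Procr and Plaur ranked 313 and 317 by mean FPKM over the 6 libraries, while Vwf ranked 8583.

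Tissue factor and its inhibitor come first in the pathway. F3 (chromosome 3, 121723537 to 121735052, GRCm38) had 17.5, 14.1 and 21.9 CPM in PBS replicates 1, 2 and 3 and 12.4, 15.8 and 19.0 CPM in DOX replicates 1, 2 and 3. The groups overlapped over most of their range. Its fitted log2 fold change was -0.18 (SE 0.22, 95% interval -0.69 to 0.33, edgeR adjusted p = 0.618). Tfpi (chromosome 2, 84432855 to 84476775) had 67.8, 81.2 and 83.1 CPM in PBS and 82.6, 113 and 63.5 CPM in DOX. Its highest and lowest values were both DOX libraries. The fit gave a log2 fold change of 0.16 (SE 0.21, 95% interval -0.33 to 0.64, edgeR adjusted p = 0.651), and it was -0.08 without DOX replicate 2. For each unit of F3 there were 1.63, 2.43 and 1.60 of Tfpi per length in PBS and 2.81, 3.02 and 1.41 in DOX (exact permutation p = 0.5, two-sided, where 0.1 is the smallest p that 3 against 3 samples allow). The ratio of inhibitor to tissue factor transcripts therefore did not separate the groups.

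Of the protein C pair, Procr stood higher in every DOX library and Thbd did not. Procr (chromosome 2, 155751125 to 155755478) had 334, 362 and 433 CPM in PBS and 970.5, 707 and 486 CPM in DOX. All DOX libraries lay above all PBS libraries, with DOX replicate 3 closest to them. The means were 376 ± 51.1 and 721 ± 243 CPM, and the fold was 1.92 (log2 fold change 0.94, SE 0.25, 95% interval 0.35 to 1.52). This missed the threshold, with an edgeR adjusted p of 0.0676. It was called at a log2 fold change of 1.15 when DOX replicate 3 was dropped (edgeR adjusted p = 0.0285), without the filter on low counts (edgeR adjusted p = 0.0477) and by DESeq2 (adjusted p = 0.00411), and it stood at 0.67 without DOX replicate 1. Over all 18 alternative settings the adjusted p lay between 0.00411 and 0.174. The macrophage sum was also higher in every DOX library, and DOX replicate 1 was highest for both Procr and that sum (12751 CPM). The sums of DOX replicates 2 and 3 (7016 and 8076 CPM) stood in the opposite order to their Procr values. In PBS, Procr was highest in replicate 3, where the macrophage sum was lowest (3917 CPM). The part of macrophage transcripts in the difference was not tested.

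Thbd (chromosome 2, 148404471 to 148408188) had 287, 183 and 434 CPM in PBS and 269.9, 204 and 306 CPM in DOX. The DOX libraries lay inside the PBS range. The log2 fold change was -0.21 (SE 0.31, 95% interval -0.94 to 0.51, edgeR adjusted p = 0.688), and it was 0.14 without PBS replicate 3, the highest library. For each unit of Thbd there were 1.59, 2.71 and 1.36 units of Procr per length in PBS and 4.91, 4.73 and 2.17 in DOX. This ratio was chosen after the values were seen. The groups overlapped, since DOX replicate 3 lay below PBS replicate 2 (exact permutation p = 0.2, two-sided). The Thbd to F3 ratio was 8.27 ± 1.71 in PBS and 8.54 ± 2.26 in DOX (SD, n = 3 each, exact permutation p = 1).

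F8 and Vwf, whose products circulate as 1 complex, did not separate the groups, and F8 varied more between libraries. F8 (chromosome X, 75170344 to 75382738) had 287, 610.5 and 549 CPM in PBS and 564, 573 and 299 CPM in DOX. The low libraries were PBS replicate 1 and DOX replicate 3, 1 in each group. The log2 fold change was -0.01 (SE 0.34, 95% interval -0.82 to 0.80, edgeR adjusted p = 0.986), and the direction turned in 6 of 18 alternative settings. Stab2, a sinusoidal endothelial scavenger receptor that clears the von Willebrand factor and factor VIII complex from blood, was named after its values were seen. It had 185, 523 and 422 CPM in PBS and 528, 403 and 205 CPM in DOX, and was lowest in the same 2 libraries. Summed over 12 sinusoidal markers (led by Lyve1 and Clec4g, and with Stab2 among them), PBS replicate 1 and DOX replicate 3 were again lowest, at 3119.5 and 3091 CPM against 3598 to 4227 CPM in the other libraries. The mean log2 CPM of these markers, set to 0 at the PBS mean, weights each marker equally. It was -0.18 in PBS replicate 1 and -0.17 in DOX replicate 3. It was as low in DOX replicate 2 (-0.18), where F8 was high (573 CPM). The part of sinusoidal cell content in the spread of F8 was not tested.

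Vwf (chromosome 6, 125552948 to 125686679) had 27.2, 27.1 and 21.5 CPM in PBS and 27.6, 27.8 and 19.3 CPM in DOX. Replicate 3 was lowest in each group. Its fitted log2 fold change was -0.02 (SE 0.18, 95% interval -0.43 to 0.39, edgeR adjusted p = 0.951), and it was 0.13 without DOX replicate 3. For each 1000 counts of the 14 endothelial genes there were 3.74 ± 0.627 counts of Vwf in PBS and 4.36 ± 0.529 in DOX (SD, n = 3 each, exact permutation p = 0.3). Per length the Vwf transcript stood at 0.0823 ± 0.0424 of that of F8 in PBS and 0.0749 ± 0.0126 in DOX (SD, n = 3 each, exact permutation p = 1).

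**Figure D2:**
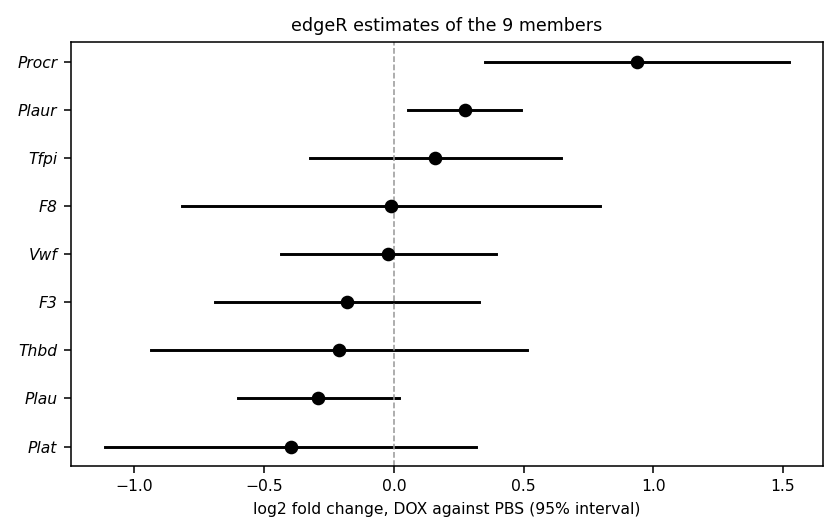
Log2 fold changes of DOX against PBS from edgeR (points) with 95% intervals (lines) for the 9 genes. The intervals of Procr (0.35 to 1.52) and Plaur (0.05 to 0.49) lie above 0 before adjustment over all genes, and the other 7 include 0.

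The plasminogen activators had lower means in DOX and their receptor a higher one, none of them past the threshold. Plat (chromosome 8, 22757722 to 22782848) had 39.8, 31.1 and 69.7 CPM in PBS and 27.9, 41.5 and 37.3 CPM in DOX. Its PBS mean rested on replicate 3. The log2 fold change was -0.40 (SE 0.30, 95% interval -1.11 to 0.32, edgeR adjusted p = 0.428) and 0.0032 without that library. PBS replicate 3 was also the highest library for F3 and Thbd, and it had the highest stellate cell sum (1456 CPM), while PBS replicate 2, the lowest PBS library for those 3 genes, had the lowest (645 CPM). In DOX the order differed, since replicate 3 had the lowest stellate cell sum (799.6 CPM) but the highest F3 and Thbd. Plat was highest in DOX replicate 2, which had the highest DOX sum (1197 CPM). The part of stellate cell content in these values was not tested.

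Plau (chromosome 14, 20836662 to 20843388) had 175, 194 and 141 CPM in PBS and 131, 150.0 and 136 CPM in DOX. PBS replicate 3 lay within the DOX range, and the other PBS libraries lay above it. The fit gave a log2 fold change of -0.29 (SE 0.13, 95% interval -0.60 to 0.02, edgeR adjusted p = 0.196), negative in each of 18 alternative settings. Plaur (chromosome 7, 24460937 to 24475970) had 274, 274 and 282 CPM in PBS and 329, 364 and 311 CPM in DOX. The PBS libraries had an SD of 4.54 CPM, and each DOX library was higher. The fold was 1.21 (log2 fold change 0.27, SE 0.09, 95% interval 0.05 to 0.49, edgeR adjusted p = 0.112). It was 0.14 when scaled by library totals alone, where the median of all genes was -0.14, and DESeq2 called it (adjusted p = 0.0411). Over the alternatives the adjusted p lay between 0.0411 and 0.303. Macrophages and neutrophils carry the urokinase receptor, and the neutrophil list (led by Csf3r and S100a8) summed to 28.8 to 60.1 CPM in PBS and 116 to 162 CPM in DOX, with the macrophage sums as given above. Within groups the orders differed. Plaur was highest in DOX replicate 2, where the macrophage sum was the lowest of the DOX libraries (7016 CPM). In PBS it was highest in replicate 3, where the macrophage and neutrophil sums were lowest (3917 and 28.8 CPM). DOX replicate 3 was the lowest DOX library for both Plaur and the neutrophil sum. The part of macrophages and neutrophils in the Plaur values was not tested.

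The ratio of urokinase to its receptor was lower in every DOX library than in any PBS library. For each unit of Plaur there were 0.397, 0.439 and 0.310 units of Plau per length in PBS and 0.247, 0.256 and 0.271 in DOX. The groups did not overlap, with means of 0.382 ± 0.0661 and 0.258 ± 0.0124 (SD, n = 3 each). Plaur alone also separated the groups, as did 34.6% of all genes taken singly, so nothing is read from the separation itself. The difference of the mean log2 ratio was -0.55, and the exact permutation p of 0.1 (two-sided) is the smallest this design can give. It was 1 of several ratios tested, of which 4 are given here beside the 1 chosen after the values were seen, and no correction could bring it past 0.05. The difference lay between -0.70 and -0.44 with each library left out.

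Because the endothelial sum was lower in DOX, the 9 genes were also set against it within each library. For each 1000 counts of the 14 endothelial genes the PBS libraries had 52.6, 51.9 and 61.4 of Procr and the DOX libraries 167, 116 and 94.7. Plaur gave 43.2, 39.2 and 40.0 counts for PBS against 56.5, 59.9 and 60.6 for DOX. Tfpi gave 10.7, 11.6 and 11.8 for PBS against 14.2, 18.6 and 12.4 for DOX. In these 3 of 9 genes the groups did not overlap, with DOX above PBS and an exact permutation p of 0.1 each (two-sided, the smallest possible). On this scale 37.9% of all genes tested did not overlap, 34.8% with DOX above PBS and 3.14% with DOX below, so the count is near the background. The log2 differences were 1.15 for Procr, 0.53 for Plaur and 0.39 for Tfpi. With the sinusoidal list as the denominator Procr still stood apart (log2 difference 0.97), while the groups overlapped for Plaur (0.35) and Tfpi (0.21). For F3, F8, Vwf, Thbd, Plat and Plau the groups overlapped on the endothelial scale, with log2 differences between -0.07 and 0.26.

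**Figure D3:**
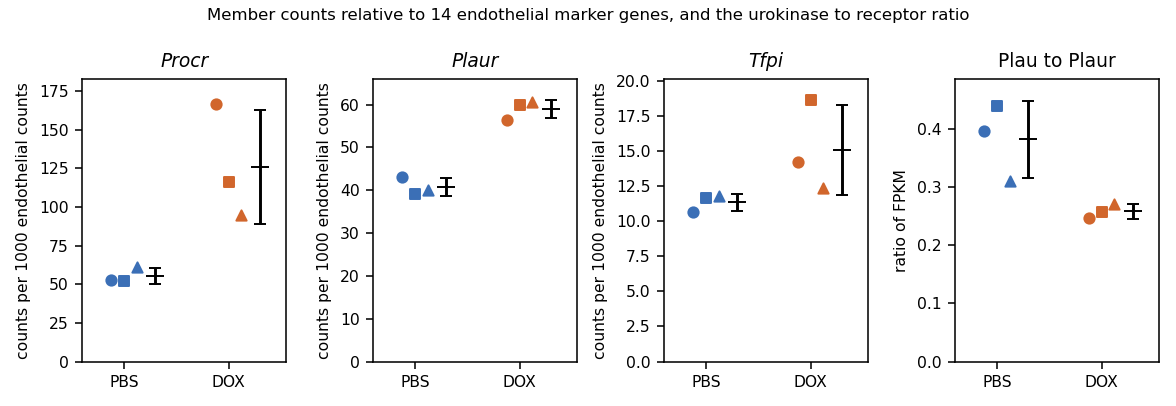
Counts of Procr, Plaur and Tfpi for each 1000 counts of 14 endothelial marker genes, and the Plau to Plaur ratio of FPKM, by library (symbols for replicates 1, 2 and 3) with the mean and SD. DOX libraries lie above PBS libraries in the first 3 panels and below them in the fourth, where DOX spans 0.247 to 0.271 and PBS 0.310 to 0.439.

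The start regions of the genes were read for motifs because Fos, a subunit of the transcription factor AP-1, rose in DOX. Fos had 13.8, 12.7 and 13.9 CPM in PBS and 31.3, 22.6 and 24.9 CPM in DOX, without overlap. On the log2 scale it rose by 0.96 with an SE of 0.15 (edgeR adjusted p = 0.0255). It lost the call in 3 of 18 alternative settings, namely on leaving out PBS replicate 2, PBS replicate 3 or DOX replicate 1. RefSeq windows (GRCm38.p6) from 250 bases before to 50 after a start site were at hand for 5 of the 9 genes, namely F3, F8, Procr, Tfpi and Plaur. The AP-1 letters TGANTCA, which read the same on both strands, occurred in 3 of these 5 genes (Procr, Plaur and F3), and in 7.81% of all 32851 windows of 300 bases. That share is over windows and not over genes, and nothing is read from a count among 5 genes. The stretches shown are the bases of those 3 windows that lie before the first exon GENCODE vM21 places there, from 5′ to 3′ on the plus strand, with AP-1 letters in capitals. They cover chr2:155750967-155751116 for Procr, chr7:24462233-24462482 for Plaur and chr3:121723287-121723536 for F3.
Procr: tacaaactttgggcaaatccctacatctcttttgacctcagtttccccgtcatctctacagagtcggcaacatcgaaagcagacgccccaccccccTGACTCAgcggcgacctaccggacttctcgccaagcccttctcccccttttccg
Plaur: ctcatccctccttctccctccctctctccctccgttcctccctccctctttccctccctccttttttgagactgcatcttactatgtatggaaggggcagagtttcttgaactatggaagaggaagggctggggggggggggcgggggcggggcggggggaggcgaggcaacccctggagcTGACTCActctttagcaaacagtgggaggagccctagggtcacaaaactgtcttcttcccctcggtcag
F3: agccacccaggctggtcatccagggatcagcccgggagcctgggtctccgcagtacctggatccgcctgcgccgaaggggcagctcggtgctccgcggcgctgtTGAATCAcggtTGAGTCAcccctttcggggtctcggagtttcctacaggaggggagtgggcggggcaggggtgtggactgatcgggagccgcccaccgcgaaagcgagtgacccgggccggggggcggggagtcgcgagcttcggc
Procr and Plaur each held TGACTCA, 47 and 62 bases before the end of the printed stretch, and F3 held TGAATCA and TGAGTCA. Procr and Plaur were the genes whose groups did not overlap, while the groups of F3 did. The Plaur stretch lies inside the gene span that RefSeq gives, which begins further upstream. The GC box GGGCGG, counted on both strands, occurred in the windows of Plaur, F3 and Tfpi and in 35.7% of all windows. The CACCC box CCACCC, counted the same way, occurred in the windows of Procr and F3 and in 31.5% of all windows. A match describes the letters and shows no binding, and the part of AP-1 in these values was not tested.

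Other genes of clotting and fibrinolysis, and genes related to them, were read from 6 lists holding 79 genes, of which 74 were tested. The last list holds 13 shear and statin responsive endothelial regulators, Fos among them, rather than clotting or fibrinolysis genes. In edgeR 2 passed as higher (Eno1 and Fos) and 1 as lower (Nos3), beside 4.38% and 2.04% of all genes tested. At an unadjusted p under 0.05 there were 32 of the 74, beside 28.7% of all genes. DESeq2 called 21 higher and 3 lower, where it called 11.6% of all genes higher and 6.82% lower. The fold changes leaned upward, with 53 positive and 21 negative values and a median log2 fold change of 0.44. Over all genes tested, 51.4% of values were negative and the median was -0.01. Nos3, the endothelial nitric oxide synthase that restrains platelets, fell from 104, 99.2 and 104 CPM in PBS to 39.2, 48.8 and 46.8 CPM in DOX. The groups were far apart (log2 fold change -1.19, SE 0.10, edgeR adjusted p = 0.0164), though the call was lost without PBS replicate 2 or 3, as for every gene in the table. Of the 14 general endothelial genes all had negative fold changes, with a median of -0.34, and Tek alone passed. Eno1, a glycolytic enzyme that also binds plasminogen at cell surfaces, rose from 265 ± 7.12 to 515 ± 118 CPM (SD, n = 3 each). Its log2 fold change was 0.96 with an SE of 0.17 (edgeR adjusted p = 0.0296), a call lost in 5 of 18 alternative settings, namely on leaving out each library other than DOX replicate 3.

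**Figure D4:**
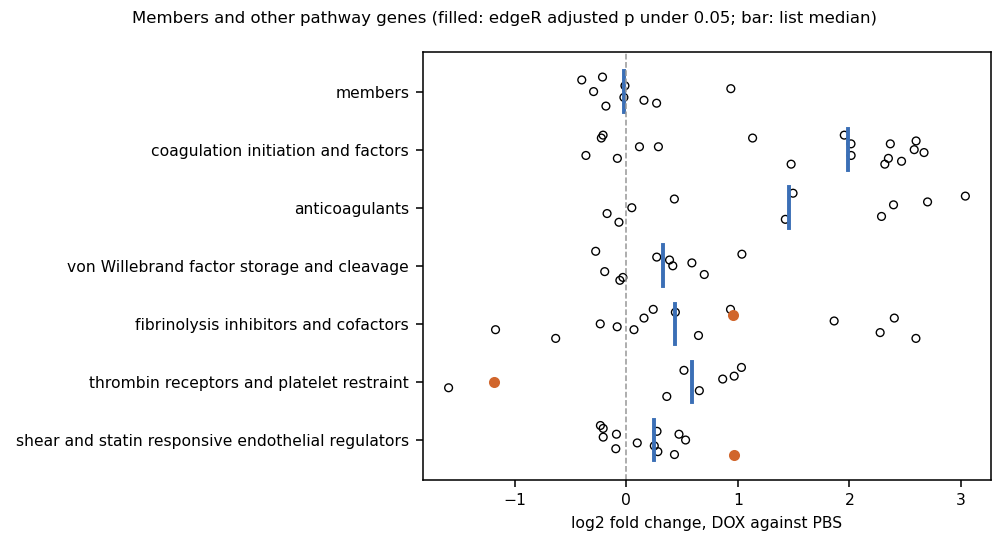
Log2 fold changes of DOX against PBS for the 9 genes (top) and the tested genes of 6 further lists, with filled points for an edgeR adjusted p under 0.05 and blue bars for list medians. The medians are 1.98 for clotting factors and 1.46 for anticoagulants, and -0.02 for the 9 genes.

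The list medians were highest for clotting factors and anticoagulants, many of which hepatocytes make. Of 18 tested clotting factor genes 14 had positive values, with a median log2 fold change of 1.98, and 0 passed in edgeR, against 11 at an unadjusted p under 0.05 (28.7% of all genes). Of 10 anticoagulant genes 8 were positive, with a median of 1.46. The other lists had lower medians, also positive. These were 0.59 for thrombin receptors and platelet restraint (6 of 8 positive) and 0.44 for fibrinolysis inhibitors and cofactors (11 of 15). Medians were 0.33 for storage and cleavage of von Willebrand factor (6 of 10) and 0.25 for endothelial regulators (8 of 13). Fgb, a chain of fibrinogen, had 12.96, 26.2 and 24.3 CPM in PBS and 100.4, 39.3 and 244 CPM in DOX. Its log2 fold change reached 2.60 with an SE of 0.64 (edgeR adjusted p = 0.0573). Plg, which encodes plasminogen, had 1.96, 3.19 and 4.47 CPM in PBS and 13.8, 4.45 and 40.0 CPM in DOX (edgeR adjusted p = 0.0825). Both were highest in DOX replicate 3 and lowest of the DOX libraries in replicate 2. The order of albumin (Alb) in the DOX libraries matched, with 346 CPM in replicate 1, 116 in replicate 2 and 1861 in replicate 3, and the part of hepatocyte content was not tested. Without DOX replicate 2, edgeR called 7 pathway genes higher, among them Fga, Fgb, Fgg and Plg, and 2.33% of all genes.

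The most abundant genes of these lists per length did not pass in edgeR. Anxa5, an annexin that covers procoagulant phospholipid, had 524 FPKM in PBS and 497 FPKM in DOX, and Pros1, the protein S cofactor of activated protein C, 257 and 208 FPKM. Anxa2 and S100a10, which form a cell surface receptor for plasminogen and tissue-type activator, had 197 and 329.8 FPKM in PBS and 246 and 261 FPKM in DOX. Cd63, a membrane protein of the storage granules of von Willebrand factor, had 491 and 373 FPKM, and Angpt2, a granule cargo, 216 and 173 FPKM. F10, the factor X gene, had 57.5 and 65.3 FPKM, and Mcfd2, which helps factor VIII leave the endoplasmic reticulum, 88.3 and 69.6 FPKM. F2r, the thrombin receptor, had 39.0 and 45.8 FPKM, and Ptgis, the prostacyclin synthase gene, 40.7 and 59.0 FPKM. Among regulators, Nfkbia and Tnfaip3, both feedback inhibitors of NF-kB, had 414 and 120.5 FPKM in PBS and 460.3 and 153 FPKM in DOX.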

How the data were processed

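The authors deposited raw counts for 22905 gene symbols and FPKM values of the same genes, 1 column per sample. The aligner, the counter and strand use were not given in the sources used here, and the submitters' processing notes name GRCm38 among builds with no role. Each nonzero deposited FPKM equalled count per kilobase and library total within a relative tolerance of 0.0001. In GENCODE vM21 no exon of the 9 genes overlaps another gene's exon. Groups came from sample titles. Replicates of a group differed beyond counting noise (chi-square per degree of freedom 29.6 to 62.6). The test was edgeR 4.0.16 in R 4.3.3 (quasi-likelihood, TMM, filterByExpr with minimum count 10, group as the only term, two-sided), on all 6 libraries, with Benjamini-Hochberg adjustment over 14439 genes and a threshold of 0.05. Ratios were compared by exact permutation tests. Alternatives used DESeq2 1.42.0, limma 3.58.1, other scalings and filters, log2(FPKM + 1), and each library left out. The code was tested on simulated counts. The genes and lists were chosen with earlier results of these data known. Named were the 9 genes, Bche, Alb, Cdh5, Mpeg1, pathway genes past the threshold and the 2 most abundant of each list, and Stab2, Tek, Lrat, Fgb, Plg and the low platelet genes were added after their values were seen. Genes of most similar pattern were to be named for called members, of which there were none. Coordinates and promoter windows are RefSeq's (GRCm38.p6). Some items withheld from the text are not reported here.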

Additional observations from a re-analysis of the deposited data

How the results depend on the processing

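Of the 9 genes, 0 were called lower in any of 18 alternative settings. As higher, 1 was called without the low-count filter (824 of all 22905 genes) and 2 by DESeq2 (1673 of all 14439). With each library left out 0 to 1 were called, the 1 without DOX replicate 3 (722 of all 14691). Pathway genes called higher (2) numbered 5 without the filter, 21 in DESeq2 and 0 to 7 with a library left out. The 7 were called without DOX replicate 2, where 345 of all 14826 genes were higher. Pathway genes called lower (1) numbered 3 in DESeq2, 2 by library totals alone, on log2(FPKM + 1) and on log2(FPKM + 0.1), and 0 to 1 with a library left out. In the first 4 of these settings 985, 730, 402 and 464 of all 14439 genes were lower. With the replicate number as a block, 4 pathway genes were higher, beside 622 of all 14439 genes, and 0 of the 9 genes were called. The deviations of same-numbered libraries correlated at 0.0949, -0.106 and 0.232, and not every library correlated best with its own. With 3 libraries a group these values cannot exclude a pairing, and the labels give only a shared number. Over all genes, 926 passed, against 2658 in DESeq2, 85 and 438 when DOX replicates 1 and 2 were dropped, and 0 for PBS replicate 2 or 3 (smallest edgeR adjusted p = 0.0663 and 0.0634). By library totals alone 45.6% of calls were higher, in place of 68.3%. Log2 fold changes near 0 turned sign. F8 was 0.0045 with RLE factors and in DESeq2 and 0.0042 in limma-voom, and with a library left out it ran from -0.28 to 0.24 (0.19 and 0.09 when PBS replicates 2 and 3 were dropped). Tfpi was -0.00013 on log2(FPKM + 1), with and without a filter of 1 FPKM, and -0.0012 on log2(FPKM + 0.1). Leaving out libraries one at a time gave -0.083 to 0.34 for Tfpi (lowest without DOX replicate 2), -0.13 to 0.13 for Vwf (0.03 when PBS replicate 1 or 2 was dropped), -0.47 to 0.14 for Thbd and -0.63 to 0.0032 for Plat (both highest without PBS replicate 3). On the endothelial scale the log2 difference of Plaur was 0.53, 0.35 with sinusoidal genes and 0.42 with Cdh5 alone as the denominator. The causes were not tested. Intervals cover the spread between 3 libraries a group, which limits the precision more than depth.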
